A study of Mus musculus with 6 samples.

Results

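Broad shared H3K4me1 domains were peaks of at least 2000 bp in the H3K4me1 list of LPS-treated macrophages that touched a peak of the PBS list. They were chosen by the width of the LPS peak on chromosomes 1 to 19 and by an overlap of at least 1 bp with a PBS peak, so width, enrichment and the presence of PBS peaks are described here and not tested. Of 71661 LPS H3K4me1 peaks on these chromosomes, 1714 (2.39%) met the rule. Together they covered 4.71 Mb, which was 12.3% of the length of all those peaks. Only 2 LPS peaks of this width had no PBS peak. The 4 peak lists of the series held 142059 peaks in all.

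The study searched for enhancers of mouse macrophages that respond to lipopolysaccharide (LPS), a component of the bacterial outer membrane sensed through Tlr4. Bone marrow-derived macrophages (BMDMs) of C57BL/6 mice, grown in medium conditioned by L929 cells, received LPS or PBS for 1 h. CUT&RUN, in which a nuclease tethered by an antibody releases DNA fragments for sequencing, was performed for H3K4me1, H3K27ac and IgG, with 1 library for each treatment and antibody. With no replicates, values describe single libraries, no test between treatments was possible, and the 95% Wilson intervals given with shares cover counting error only. Nearby peaks are not independent of each other, which these intervals leave out. The 4 libraries with a peak list held an estimated 5660000 to 7210000 fragments, with 7000000 for LPS H3K4me1 and 6870000 for PBS H3K4me1. The LPS H3K27ac list held 4200 peaks and the PBS H3K27ac list 52. The IgG libraries were not analysed here.

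H3K4me1 is laid down by the Mll3 and Mll4 methyltransferases around enhancers, whether active or poised, and at the flanks of promoters. In macrophages the ETS factor PU.1, encoded by Spi1, binds together with C/EBP and AP-1 factors and opens such sites, so that the mark is a record of lineage. Acetylation of H3K27 by p300 and CBP accompanies activity of an enhancer. A broad domain of H3K4me1 can hold several neighbouring binding sites that the peak caller did not separate.

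Sequences of 300 bp around the H3K4me1 summit are given for 4 domains, each on the plus strand of GRCm38. They are the widest domain, the domain with the most LPS H3K27ac peaks, and the domains nearest to the start sites of Cebpb and of Ier5, an immediate early gene. The window of the widest domain, in an intron of Prkch, was chr12:73610997-73611296. That of the domain in Spi1 was chr2:91086382-91086681, in an intron. That of the domain upstream of Cebpb was chr2:167649371-167649670, in an intron of Tmem189 and of the overlapping gene Gm20431. That of the domain downstream of Ier5 was chr1:155065365-155065664, in an intron of a noncoding transcript. Capitals mark the letters of any of 10 motifs searched on both strands.
Prkch: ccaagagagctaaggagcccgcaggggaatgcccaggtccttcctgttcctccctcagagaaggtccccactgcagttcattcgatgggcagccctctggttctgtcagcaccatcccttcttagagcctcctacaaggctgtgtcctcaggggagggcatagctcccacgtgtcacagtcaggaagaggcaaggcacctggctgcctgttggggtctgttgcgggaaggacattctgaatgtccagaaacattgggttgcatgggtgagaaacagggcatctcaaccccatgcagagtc
Spi1: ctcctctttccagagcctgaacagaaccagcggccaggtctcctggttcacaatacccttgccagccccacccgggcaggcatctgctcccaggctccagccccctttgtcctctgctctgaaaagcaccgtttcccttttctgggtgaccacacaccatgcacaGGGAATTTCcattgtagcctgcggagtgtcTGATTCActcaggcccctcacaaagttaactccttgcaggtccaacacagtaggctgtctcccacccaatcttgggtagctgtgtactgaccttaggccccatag
Cebpb: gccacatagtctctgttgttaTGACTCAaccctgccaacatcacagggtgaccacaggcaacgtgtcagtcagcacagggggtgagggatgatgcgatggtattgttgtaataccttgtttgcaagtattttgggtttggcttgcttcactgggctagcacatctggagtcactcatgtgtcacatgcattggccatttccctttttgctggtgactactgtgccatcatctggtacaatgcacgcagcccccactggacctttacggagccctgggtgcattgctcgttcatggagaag
Ier5: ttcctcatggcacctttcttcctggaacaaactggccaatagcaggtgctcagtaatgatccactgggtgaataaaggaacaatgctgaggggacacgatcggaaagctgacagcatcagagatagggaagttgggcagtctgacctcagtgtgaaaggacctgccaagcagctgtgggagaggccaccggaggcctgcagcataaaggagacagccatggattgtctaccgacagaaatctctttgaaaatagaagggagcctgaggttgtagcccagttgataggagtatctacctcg
The Spi1 window held the letters GGGAATTTC, a match to the NF-kB motif GGGANTTTC, 19 bp from the H3K4me1 summit. It also held TGATTCA, a match to the AP-1 motif TGANTCA, 48 bp from the summit. The Cebpb window held an AP-1 match, TGACTCA, 126 bp from its summit. The windows of Prkch and Ier5 held no match to any of the 10 motifs. The GC content was 57.3% for Prkch, 56.3% for Spi1 and 51.0% for both Cebpb and Ier5, against a median of 50.3% over the 1714 domains.

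The width of the domains had a median of 2467 bp, with an interquartile range of 2196 to 2980 bp and a highest value of 9535 bp. Their summits carried many fragments. The median was 34 fragments at the summit, with quartiles of 29 and 40, against 20 in the 42346 shared LPS peaks under 2000 bp and 17 in all LPS peaks. Median fold enrichment, the ratio of fragment coverage to local background, was 11.5 in the domains and 6.75 in the narrower shared peaks. The narrowest domains, nearest to Crybb3 and Slc25a13, were 2001 bp wide, and that nearest to Vps4b was 2002 bp wide. The widest shared peaks left out, nearest to Gnptab, Lgmn and Mknk1, were 1998 to 1999 bp wide. Fragments at the summit were 26 to 38 in these 3 domains and 18 to 39 in these 3 peaks.

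The widest domain spanned 9535 bp on chromosome 12 (73604736 to 73614270) in an intron of Prkch, which encodes a protein kinase C. It had 45 fragments at its summit and ranked 250 by -log10 q among LPS H3K4me1 peaks. PBS peaks covered 90.3% of it, and the largest of these 3 peaks was 5372 bp wide. No LPS H3K27ac peak lay in it. The next widest was 8076 bp and lay in Abhd12, with Pygb, encoding a glycogen phosphorylase, as the gene with the nearest protein-coding start site. Domains in introns of Slc45a4 and Zzz3 were 7742 and 7335 bp wide. A domain of 7060 bp in Aplp2 held parts of 9 PBS peaks, the highest number in any domain. Domains in Slc37a2, a sugar phosphate transporter of macrophages, in Tspan14, a tetraspanin, and in Sh3gl1, an endophilin of endocytosis, were 6688 to 6977 bp wide. The domain near Ctsd, which encodes the lysosomal protease cathepsin D, was 6487 bp wide, and that in Zmiz1, a transcriptional coactivator, 6481 bp. Among these 10 widest domains PBS peaks covered between 63.3% and 91.5% of the length. Of the 10, 4 held an LPS H3K27ac peak, against 8.87% of all domains and 18.4% of those of 4000 bp or more.

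Most of a domain was also marked without LPS. PBS H3K4me1 peaks covered a median of 74.9% of a domain's length, with quartiles of 61.5% and 85.7%. The narrower shared peaks were close, with a median of 72.8% and quartiles of 49.2% and 95.7%. At least 50% of the length was covered in 1515 domains (88.4%, 86.8 to 89.8%), and at least 90% in 288 (16.8%, 15.1 to 18.6%). The PBS signal was mostly listed in pieces. A single PBS peak was found in 432 domains (25.2%), 2 in 724 (42.2%), 3 in 382 (22.3%) and 4 or more in 176 (10.3%). The widest PBS peak of a domain had a median of 1466 bp, and 444 domains (25.9%) held a PBS peak that was itself at least 2000 bp wide. Seen from the PBS list, all 806 peaks of at least 2000 bp on these chromosomes were overlapped by an LPS peak, and 443 (55%, 51.5 to 58.4%) by a domain. The other wide PBS peaks met only LPS peaks under 2000 bp. Both H3K4me1 libraries had similar estimated depth. Which share of the differences in width came from the splitting of a signal near the calling threshold was not tested.

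**Figure D1:**
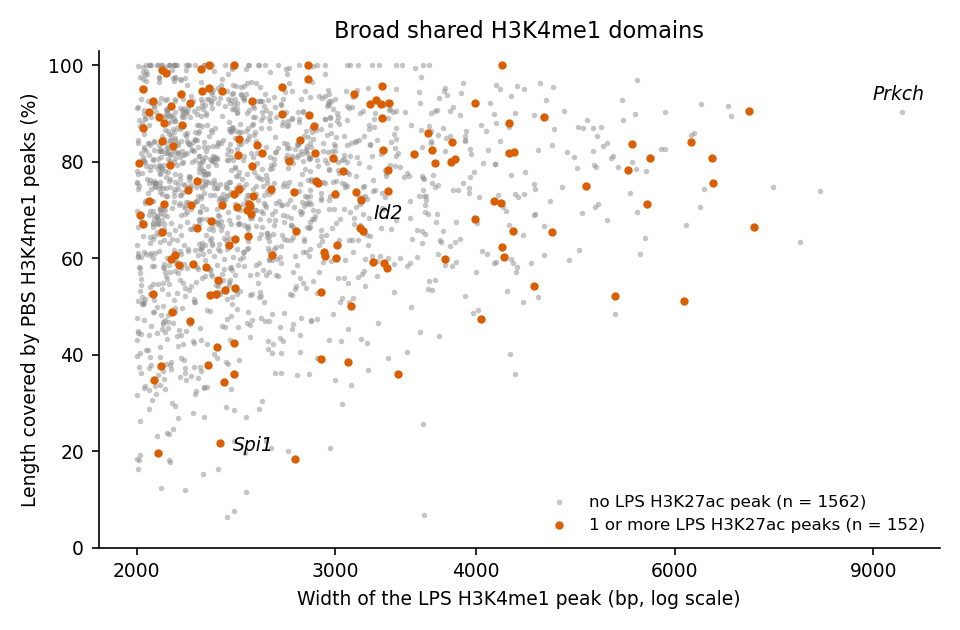
Each point is 1 of 1714 domains, with the width of the LPS H3K4me1 peak in bp on a log axis and the percent of its length covered by PBS H3K4me1 peaks. Orange points are the 152 domains overlapped by an LPS H3K27ac peak, which are found at all levels of PBS coverage, and the domain in Spi1 stands at 21.7%.

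A small set was wide under LPS and little covered by listed PBS peaks, which is not a measure of PBS signal. PBS peaks covered under 25% of the length in 27 domains (1.58%, 1.08 to 2.28%). The domain in Spi1 was one of them, at 21.7%. Others lay in Tgfbr2, a receptor of TGF-beta (22.1%), at a start site of Cd33, a sialic acid-binding receptor (18.2%), near Lyl1, a helix-loop-helix factor of blood cells (11.9%), and near Rgs14, a regulator of G protein signalling (7.63%). The least covered domains were at a start site of Slc19a2, a thiamine transporter (6.41%), and near Elmo2, an engulfment adaptor (6.81%). The median -log10 q of these 27 domains was 13.0, and that of the 288 domains covered by at least 90% was 18.2. The 2 wide LPS peaks with no PBS peak at all were 2213 bp at chromosome 19, 5809474 to 5811686, with 2 LPS H3K27ac peaks, and 2318 bp at chromosome 3, 88144565 to 88146882, in an intron of Mef2d, with none.

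H3K27ac after 1 h of LPS was listed in a minority of the domains. An LPS H3K27ac peak overlapped 152 of 1714 domains (8.87%, 7.61 to 10.3%), against 1.86% of all LPS H3K4me1 peaks and 2.18% (2.05 to 2.33%) of the shared peaks under 2000 bp. With -log10 q limited to 5 or more in all lists, it was 45 of 1650 domains (2.73%), against 0.820% of all LPS H3K4me1 peaks that passed. The longer a peak, the more often it was hit. The share was 7.16% (5.88 to 8.70%) of 1298 domains of 2000 to under 3000 bp, 12.1% (8.82 to 16.5%) of 280 domains of 3000 to under 4000 bp and 18.4% (12.8 to 25.7%) of 136 domains of 4000 bp or more. Per length, counting any overlap of 1 bp, the values were close. The domains held 38.6 H3K27ac peaks per Mb, with an exact 95% Poisson interval of 33.2 to 44.6. The narrower shared peaks held 38.4 per Mb (36.1 to 40.9). An H3K27ac peak across an edge counts here, and narrow peaks have more edges per length. H3K27ac summits inside numbered 180 in the domains, against 182 overlaps. In the narrower shared peaks they numbered 841, against 977 overlaps. By summits the rate of the narrower shared peaks was thus the lower one, and whether counting error covers this difference was not tested. Within 500 bp on either side of the H3K4me1 summit, a window of the same length for every peak, an H3K27ac peak was found at 88 domains (5.13%, 4.19 to 6.28%), against 2.49% of all LPS peaks and 2.78% (2.63 to 2.95%) of the narrower shared peaks. The fixed window extends past the edges of most narrow peaks but lies largely inside a domain, and the part of this in the contrast was not tested.

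**Figure D2:**
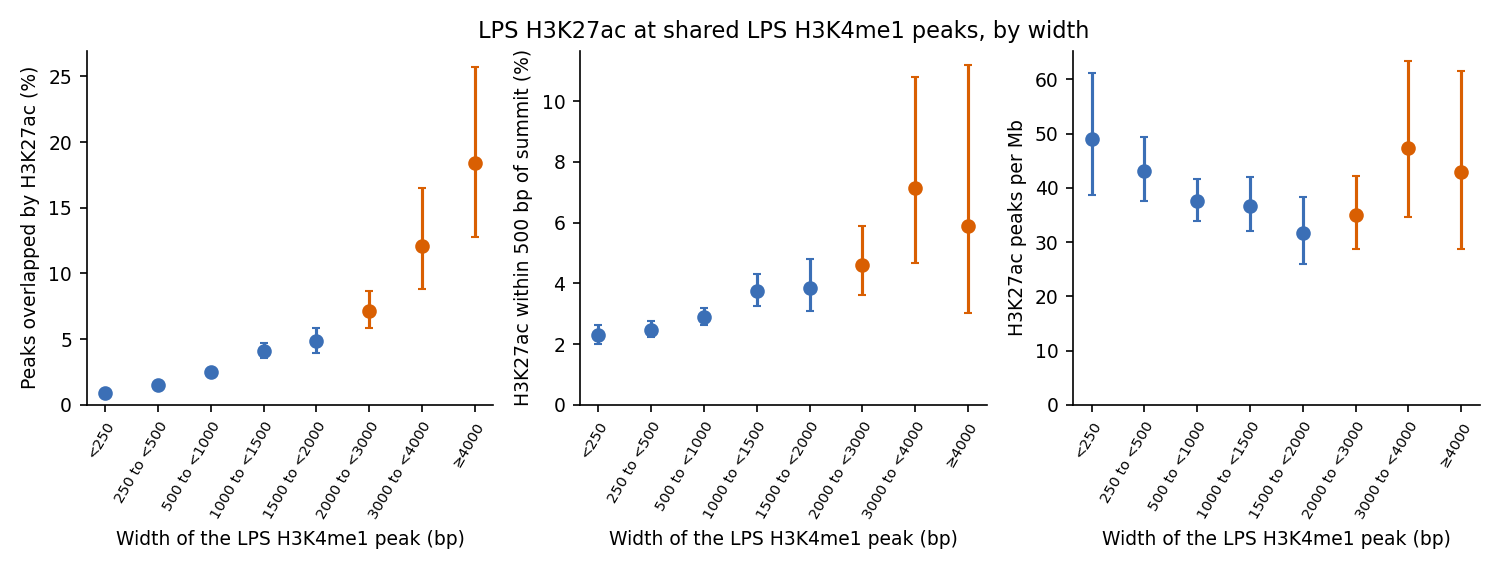
Shared LPS H3K4me1 peaks are grouped by width in bp, with domains in orange and narrower peaks in blue. From left to right are the percent overlapped by an LPS H3K27ac peak, the percent with one within 500 bp of the summit, both with 95% Wilson intervals, and the number per Mb of H3K4me1 peak with exact Poisson intervals; the first reaches 18.4% at 4000 bp or more, while the last stays between 31.7 and 49.0 per Mb.

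Of the 152 domains, 124 held 1 LPS H3K27ac peak, 26 held 2 and 2 held 3. These 182 peaks were 4.42% (3.83 to 5.09%) of the 4120 LPS H3K27ac peaks on the same chromosomes. They were as narrow as elsewhere, with a median width of 157 bp against 150 bp for the other H3K27ac peaks, and their median -log10 q was 3.87 against 3.75. The median distance between both summits was 509 bp, and 43 of 180 (23.9%, 18.2 to 30.6%) lay within 200 bp. Of the 180 H3K27ac summits inside domains, 158 (87.8%, 82.2 to 91.8%) fell in the part also covered by a PBS H3K4me1 peak, which made up 72.9% of the domain bases. In the narrower shared peaks, 664 of 841 summits (79.0%, 76.1 to 81.6%) fell in that part, which made up 67.2% of the bases. The share of domains with H3K27ac was similar across classes of PBS coverage. It was 7.56% (4.47 to 12.5%) of 172 domains covered by 25 to under 50%, 9.65% (7.63 to 12.1%) of 663 covered by 50 to under 75%, 7.98% (6.02 to 10.5%) of 564 covered by 75 to under 90% and 9.38% (6.52 to 13.3%) of 288 covered by at least 90%, with overlapping intervals. Among the 27 least covered domains it was 3, those nearest to Spi1, Fth1 and Ly6e, or 11.1% (3.85 to 28.1%).

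The domain in Spi1 combined a short PBS peak with the most acetylation. It spanned 2371 bp at chromosome 2, 91084432 to 91086802, starting 2042 bp downstream of the Spi1 start site in an intron. Under PBS a single H3K4me1 peak of 515 bp was listed at its downstream end, with 38 fragments at the summit, while the LPS summit had 33. The LPS summit was no higher than the PBS summit, and the LPS peak was listed over a longer stretch. Fold enrichment was 6.09 at the LPS summit and 12.8 at the PBS summit, with -log10 q of 8.35 and 19.2. Both LPS values lay below the 10th percentiles of the domains, which were 6.96 and 8.86. The 3 LPS H3K27ac peaks of the domain covered 899 bp in all and ranked 251, 443 and 2809 by -log10 q in the list of 4200. The NF-kB and AP-1 letters in the printed sequence lay between the summits of the H3K27ac peaks ranked 251 and 2809. The other domain with 3 LPS H3K27ac peaks, at chromosome 12, 25188650 to 25191811, lay 91510 bp from the nearest protein-coding start site, that of Id2, an inhibitor of helix-loop-helix factors. It was 3162 bp wide and 72.1% covered under PBS, and its H3K27ac peaks covered 520 bp and ranked between 1394 and 3316.

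**Figure D3:**
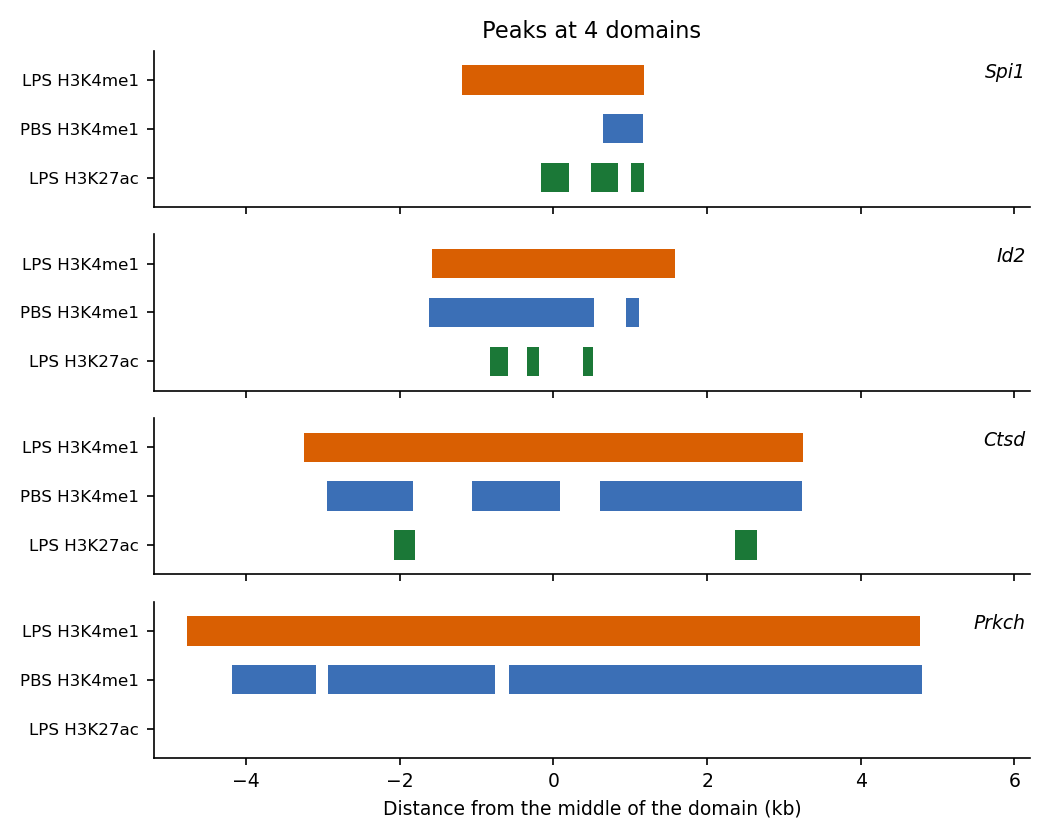
Peaks at the domains of Spi1, Id2, Ctsd and Prkch are drawn to scale against the distance from the middle of the domain in kb, with the LPS H3K4me1 domain in orange, PBS H3K4me1 peaks in blue and LPS H3K27ac peaks in green. At Spi1 the PBS H3K4me1 peak is short and 3 H3K27ac peaks are present, whereas at Prkch the 3 PBS peaks cover 90.3% of the domain and no H3K27ac peak is listed.

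The domains with 2 LPS H3K27ac peaks and the most acetylated length lay at genes of several kinds. In Slc6a6, the taurine transporter, they covered 839 bp of a domain of 3308 bp that held a promoter, and the larger ranked 247. In the intergenic domain near Lyz1, which encodes lysozyme, they covered 618 bp. In Elf1, an ETS factor, they covered 565 bp, and at Ctsd 562 bp. In Slc48a1, a heme transporter of macrophage lysosomes, they covered 546 bp. In the domain 17893 bp from the start site of Il10ra, the receptor of interleukin 10, they covered 539 bp. The remaining domains of this kind lay 107532 bp from the start site of Auh, with 562 bp, and 2003 bp from that of Inpp5b, with 532 bp. PBS H3K27ac peaks were listed in 4 domains (0.233%, 0.0908 to 0.599%), against 0.0223% of all LPS H3K4me1 peaks and 0.0260% of the narrower shared peaks, namely those near Tbc1d2b, Prkcd, Lyz1 and Cables1. With 52 peaks in the whole PBS H3K27ac list, a lack of overlap with it says little about any domain. Of these 4, all but the domain near Prkcd, a protein kinase C, also held an LPS H3K27ac peak.

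Most domains lay inside genes and away from promoters. The H3K4me1 summit was intronic in 1101 domains (64.2%, 61.9 to 66.5%), against 57.5% (57.0 to 58.0%) of the narrower shared peaks. It was intergenic in 360 (21%, 19.1 to 23.0%), against 25.6% (25.2 to 26.0%) of the narrower shared peaks. It was exonic in 76 (4.43%, 3.56 to 5.51%), close to the 4.48% of all LPS H3K4me1 peaks. The summit lay within 1000 bp of an annotated start site in 177 (10.3%, 8.97 to 11.9%), against 12.7% (12.4 to 13.0%) of the narrower shared peaks. As a whole, 369 domains (21.5%, 19.6 to 23.5%) overlapped a promoter, taken as 1000 bp on either side of a start site, against 19.3% of all LPS H3K4me1 peaks and 15.7% (15.3 to 16%) of the narrower shared peaks. This order reversed for windows of equal length. Within 500 bp of the summit a promoter was found for 14.5% (12.9 to 16.3%) of the domains and for 17.9% (17.5 to 18.2%) of the narrower shared peaks. The median distance from a domain to the nearest protein-coding start site was 23780 bp, and 484 domains (28.2%, 26.2 to 30.4%) lay farther than 50 kb away.

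The sequence at the summits of the domains was richer in GC and poorer in repeats, which did not hold for the whole peak. Median GC content of the 300 bp at the summit was 50.3% in the domains and 47.7% in the narrower shared peaks, whereas over the whole peak it was 47.3% and 47.6%. The domains held 10.7 CpG dinucleotides per kb, against 12.1 in the narrower shared peaks and 13.5 in all LPS peaks. The summit window was mostly repeat-masked in 65 domains (3.79%, 2.99 to 4.80%), against 7.04% (6.80 to 7.28%) of the narrower shared peaks. Over the whole peak the median repeat-masked share was 14.2% in the domains, 11.4% in the narrower shared peaks and 10.9% in all LPS peaks.

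Letters of macrophage factors were found at the summits of the domains about as often as at other peaks. The motifs searched included PU.1 (GAGGAAGT), C/EBP (TTGCNNAA) and AP-1 (TGANTCA). At least 1 of these 3 was found in the 300 bp at the summit of 547 domains (31.9%, 29.7 to 34.2%), against 29.8% of all LPS peaks and 31.6% (31.2 to 32.1%) of the narrower shared peaks. PU.1 letters were found in 142 domains (8.28%, 7.07 to 9.68%), against 6.86% (6.62 to 7.1%) of the narrower shared peaks and 5.90% (5.73 to 6.07%) of all LPS peaks. C/EBP letters were found in 12.7% (11.2 to 14.3%) and 13.7% (13.4 to 14.0%) of the domains and the narrower shared peaks, and AP-1 letters in 14.6% (13.0 to 16.4%) and 14.9% (14.6 to 15.3%). RUNX letters (TGTGGTT) were found in 9.39% (8.10 to 10.9%) and 8.61% (8.35 to 8.89%). IRF letters (GAAANNGAA) were fewer in the domains, at 8.11% (6.91 to 9.50%) against 10.2% (9.88 to 10.5%). Letters of NF-kB (GGGANTTTC) were found at 21 summits (1.23%, 0.803 to 1.87%), against 1.24% of all LPS peaks. Those of the E-box bound by Mitf and Tfec (TCACGTG) were found at 30 (1.75%, 1.23 to 2.49%), against 1.91%. Of the motifs of other tissues, the octamer (ATGCAAAT) was found at 19 summits (1.11%, 0.711 to 1.72%), against 1.51% of all LPS peaks, and that of HNF1 (GTTAATNAT) at 0.233% (0.0908 to 0.599%), against 0.568%. The letters of NRF1 (GCGCATGCG), a factor of CpG-rich promoters, were found at 0 of 1714, for which the upper Wilson bound is 0.224%, against 0.183% of all LPS peaks. Some motifs can share letters, since a C/EBP and an AP-1 match may overlap, and a match describes the sequence only.

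Over the whole length of the domains these letters were thinner than in narrower peaks. PU.1 letters occurred 0.146 times per kb in the domains and 0.189 times in the narrower shared peaks. AP-1 letters occurred 0.387 and 0.482 times per kb, and C/EBP letters 0.470 and 0.492 times. A domain was long enough that 33.0% held PU.1 letters somewhere, 63.8% AP-1 letters and 69.7% C/EBP letters. Such shares rise with length and have no share of other peaks beside them here, so only the rates per kb compare. PU.1 letters occurred 0.146 times per kb in the domains with LPS H3K27ac and in those without, and AP-1 letters 0.451 and 0.380 times.

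**Figure D4:**
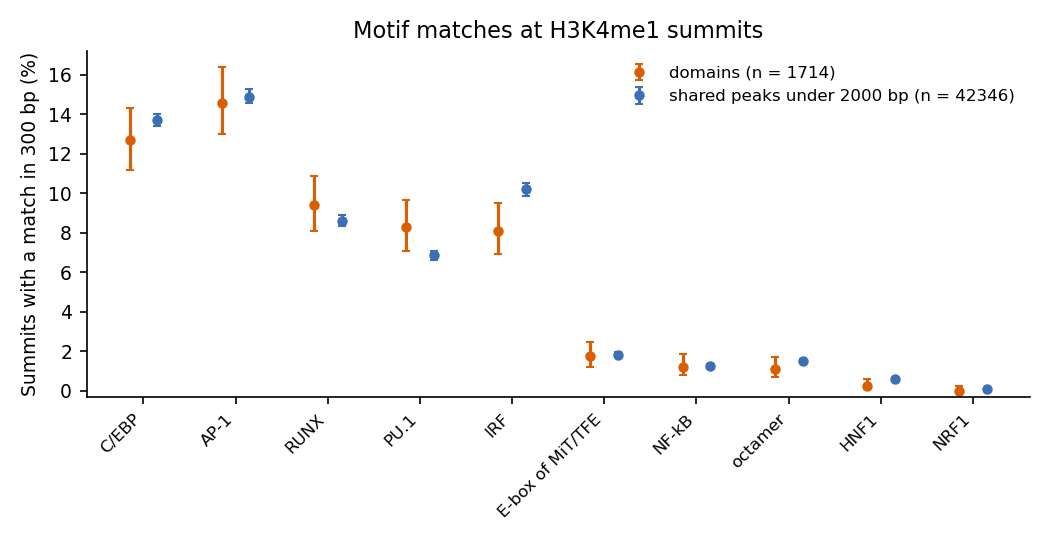
The vertical axis is the percent of H3K4me1 summits with at least 1 match to a motif in 300 bp, on either strand, with 95% Wilson intervals, for the domains (orange) and the shared peaks under 2000 bp (blue). The PU.1 point of the domains is the higher one at 8.28% against 6.86%, and the IRF point the lower one at 8.11% against 10.2%.

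The domains were uneven along the genome. Their density ranged from 50.9 per 100 Mb on chromosome 16 to 92.8 on chromosome 2, and their share of the LPS H3K4me1 peaks of a chromosome from 1.54% on chromosome 11 to 3.02% on chromosome 8. When domains were joined across gaps up to the distance commonly used to stitch super-enhancers, 543 (31.7%) fell into 226 clusters of at least 2. Other LPS H3K4me1 peaks were not joined in this way, so whether such grouping is particular to the domains was not tested. The largest cluster held 9 domains over 45281 bp of Tspan14 on chromosome 14. The next held 7 over 42864 bp at Bcl2l1, an inhibitor of apoptosis, and Cox4i2 on chromosome 2. A cluster of 6 over 50732 bp lay at Tbc1d2b, a regulator of Rab GTPases, and one of 5 over 53522 bp in Zmiz1 with 5 LPS H3K27ac peaks along it. The cluster in Bin1, which encodes an amphiphysin, held 6 domains over 30343 bp and no LPS H3K27ac peak.

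By nearest protein-coding start site the domains belonged to 1187 genes, of which 320 had at least 2 domains and 121 at least 3. The gene with the greatest summed length was Dhrs3, a reductase of retinaldehyde, with 8 domains and 26930 bp. Of these, 2 lay within Dhrs3, and the other 6 in the neighbouring gene Vps13d. These 8 domains held 5 LPS H3K27ac peaks. Zmiz1 followed with 5 domains and 22767 bp, Tspan14 with 6 and 21932 bp, and Tbc1d2b with 6 and 21797 bp. Mbp, known for myelin basic protein, had 8 domains and 20736 bp with no LPS H3K27ac peak, and Fam49b, a binding partner of Rac1, had 8 and 19991 bp, also with none. Zfp36l2, an RNA-binding protein of mRNA decay, had 6 domains and 19301 bp. Plxna1, a semaphorin receptor, Cmip and Slc45a4 had 4 to 6 domains and 17598 to 17901 bp each.

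Gene lists were compared by which genes had a domain within 50 kb of their start site. The lists were chosen with earlier results of these data known, so the shares are no test of the cell label. Over all 20780 protein-coding genes the share was 8.73%. Of 20 macrophage lineage transcription factors, 9 had a domain (45.0%, 25.8 to 65.8%), as did 10 of 33 macrophage receptors and effectors (30.3%, 17.4 to 47.3%). Of genes of other blood lineages, 5 of 31 had one (16.1%, 7.09 to 32.6%), and of genes of non-blood tissues, 2 of 31 (6.45%, 1.79 to 20.7%). Housekeeping genes stood at 5 of 28 (17.9%, 7.88 to 35.6%), namely Cox4i1, Eef2, Sdha, Rplp0 and Psma1. The median summed length of domains was 0 bp in each list and over all genes. The density of H3K4me1 peaks around a gene also differed between the lists. The median number of LPS H3K4me1 peaks within 50 kb was 15.5 for the lineage factors and 23 for the receptors and effectors, against 7 for housekeeping genes, 1 for genes of non-blood tissues and 3 over all genes. Among all genes a peak of at least 2000 bp was found at 2.61% of those with 1 to 5 peaks and at 25.6% of those with 11 to 20. Such a peak was found at 49.1% of those with 21 to 30 and at 56.9% of those with 31 or more. The receptors and effectors, with their median of 23 peaks, stood at 30.3%. Within 100 kb the order of the lists turned in part, with housekeeping genes at 32.1% and genes of other blood lineages at 32.3%, above the receptors and effectors at 30.3%, while the lineage factors stood at 55% and all genes at 15.6%. What part of the list differences this density carries was not tested.

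**Figure D5:**
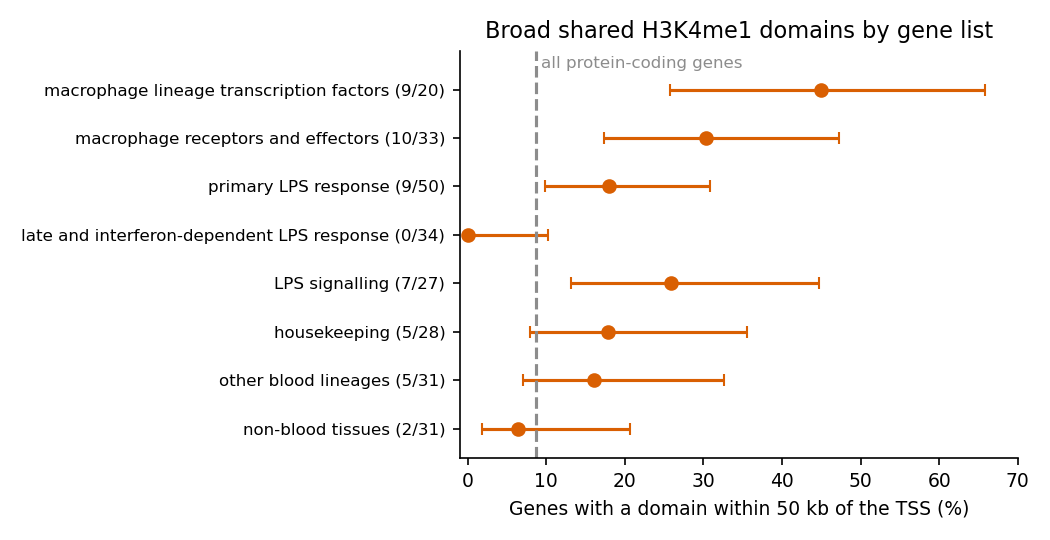
Points are the percent of genes of 8 lists with a broad shared H3K4me1 domain within 50 kb of the start site, with 95% Wilson intervals and the counts in parentheses. The dashed line is the 8.73% of all protein-coding genes, and the lineage transcription factors lie farthest to the right at 45.0%, with the late and interferon-dependent LPS response at 0.

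Among the lineage factors, Fli1, an ETS factor of blood cells, had 4 domains in its introns, of 2339 to 3397 bp, between 22020 and 38071 bp downstream of its start site. PBS peaks covered 70.3% to 100% of each. Mitf, a regulator of lysosomal and melanocyte genes, had 2 intronic domains of 2837 and 3751 bp, each with 1 LPS H3K27ac peak, and the first was covered to 100% by a PBS peak of 3642 bp. Its relative Tfec had an intronic domain of 3755 bp covered to 95.3%. Irf5, a factor of Toll-like receptor signalling, had a domain of 2466 bp at 1808 bp upstream, and Etv6 one of 2235 bp in an intron. Cebpb had a domain of 2012 bp at 38834 bp upstream, with 1 LPS H3K27ac peak. The domain counted for Irf8, of 4399 bp at 48441 bp upstream, was also the one counted for the housekeeping gene Cox4i1 and had its nearest start site at Emc8. Cebpa and Runx1 had no domain, with 19 and 32 LPS H3K4me1 peaks within 50 kb. Of the 14 domains near lineage factors, 4 held an LPS H3K27ac peak, against 8.87% of all 1714 domains.

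Among receptors and effectors, Itgb2, the beta chain of the leukocyte integrins, had 3 intronic domains of 2110 to 3153 bp within 9679 bp of its start site. Csf1r, the receptor of the growth factor M-CSF, had one of 2849 bp at 18376 bp downstream in the gene, covered to 80.7% by PBS peaks. Tlr4, the LPS receptor, had one of 2472 bp in an intron, covered to 69.9%. Abca1, the exporter of cholesterol, had the widest of these lists, at 5309 bp and covered to 48.5%. Cd36, a scavenger receptor, and Mertk, a receptor for dead cells, had intronic domains of 2551 and 2163 bp. Ctss, which encodes cathepsin S, had one of 2460 bp at 4105 bp upstream. Apoe had 2 domains, of 2053 and 2003 bp, that lay nearest to the start sites of Apoc2 and Apoc1 and were covered to 32.7% and 43.0%. The domain counted for Lyz2 lay nearest to the related gene Lyz1, and that counted for Trem2 lay nearest to B430306N03Rik. Of these 13 domains 1 held LPS H3K27ac, that of Lyz2, against 8.87% of all domains. Adgre1, Itgam and Cd68 had none, although 15 to 25 LPS H3K4me1 peaks were listed near each.

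The 50 primary response genes to LPS had a median of 11 LPS H3K4me1 peaks within 50 kb. A domain lay within 50 kb of 9 of them (18%, 9.77 to 30.8%), against 8.73% of all genes and 17.9% of housekeeping genes. The 9 were Ier5, Il1rn, Nfkbie, Jun, Rel, Ier2, Atf3, Icam1 and Relb. They include a receptor antagonist of interleukin 1, an inhibitor and subunits of NF-kB, and a subunit of AP-1. Ier5 had 3 domains of 2171 to 2717 bp, between 32942 and 42434 bp downstream. The nearest domain of the whole list was 28130 bp from its gene, Nfkbie, and had its nearest start site at Hsp90ab1. Within 10 kb of the start site the count was 0 of 50, against 2.49% of all genes, and it was also 0 in the housekeeping, other blood and non-blood lists. The domain counted for Relb was the one of Apoe near Apoc2, and that counted for Ier2 was the domain near Lyl1 described above. Of the 11 domains near primary response genes, 1 held an LPS H3K27ac peak, that counted for Icam1, against 8.87% of all domains.

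Of 34 genes of the late and interferon-dependent LPS response, 0 had a domain (0 to 10.2%), an interval that holds the 8.73% of all genes. H3K4me1 peaks of both lists lay within 50 kb of 31 of them. The widest LPS H3K4me1 peak near such a gene had a median width of 957 bp (554 to 1308, an order-statistic interval), against 1098 bp (766 to 1550) for primary response genes, 1406 bp (1083 to 2371) for lineage factors and 530.5 bp (517 to 547) over all genes. Their widest peak, near Il12b, which encodes a subunit of interleukin 12, was 1939 bp and so just below the limit. With a minimum of 1500 bp, 6 of the 34 genes (17.6%) had a domain, against 16.3% of all genes. Tnf and the adjacent Lta had no domain within 50 kb. Their widest LPS peak was 1550 bp and their widest PBS peak 955 bp, and 2 LPS H3K27ac peaks lay in the window. Il6 had no LPS H3K4me1 peak within 50 kb, and its widest PBS peak was 222 bp.

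Among components of LPS signalling, domains were found at 7 of 27 genes (25.9%, 13.2 to 44.7%), against 8.73% of all genes. These 27 genes had a median of 16 LPS H3K4me1 peaks within 50 kb. Of all genes with 11 to 20 such peaks, 25.6% had one of at least 2000 bp. Plcg2, a phospholipase of immune receptor signalling, had 3 domains in its introns, of 2386 to 3334 bp and covered to 68.7% to 92.3% by PBS peaks. Map3k8, the kinase Tpl2, had 2, of which that at 13756 bp held an LPS H3K27ac peak. Tbk1, the kinase that activates Irf3, had one of 3602 bp at 8285 bp upstream, in Xpot. Mapk14, which encodes the kinase p38, Inpp5d, the phosphatase Ship1, and Pik3ap1, an adaptor of phosphoinositide 3-kinase, had intronic domains of 2175 to 2611 bp. Ticam2, the adaptor Tram, had one of 2017 bp nearer to Eif1a. The genes of other tissues that were counted had domains closer to other genes in part. Those of Flt3, Elane and Eomes lay in Pan3, Arid3a and Golga4, that of Cd4 had its nearest start site at Lag3, and that of Cebpe lay in Slc7a8. The domains of Acta1 and Ttr, of 2859 and 2078 bp, had no nearer protein-coding start site.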

How the data were processed

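CUT&RUN libraries of BMDMs were analysed from their peak lists. After trimming, the authors mapped reads to GRCm38 and dropped blacklisted regions, and peaks were called for each library on its own. The submitters' processing notes name Bowtie2 2.4.4 and MACS2 2.2.7.1. The deposited fold enrichment is a ratio of coverage at the summit to local background. The deposited -log10 p and -log10 q belong to the same summit, and the deposited score, a whole number made from q, was not used. The smallest -log10 q in each list was just above 2.

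Overlap meant at least 1 bp. Genes were those of GENCODE M21, on the same build, and sequences were read from the RefSeq GRCm38 assembly. Fragments at a summit and the local background were recovered from fold enrichment and p by the Poisson model of MACS2, which matched at least 99.99% of peaks in each list. The depth of a library was then estimated from its lowest common background level. That estimate took the smallest peak width as fragment length and assumed a genome size, which the match does not test. Scripts used Python 3.11.15 with pandas 2.3.3 and scipy 1.17.1 and were tested on simulated data. Width, threshold, overlap, distance and window were each varied.

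The domains, the 8 gene lists and the 10 motifs were chosen with earlier results of these data known. The rule named the 10 widest domains, the 10 with the most LPS H3K27ac peaks, those with a PBS H3K27ac peak, those nearest the width limit, the 10 genes with the most domain length, list members with a domain, and Tnf, Lta and Il6. A list member that the rule names is not reported here. Other genes were named after their values were seen, among them Bcl2l1, Bin1, Cebpa, Runx1, Adgre1, Itgam, Cd68, Il12b and those of the 27 least covered domains. Genes on the sex chromosomes were left out of the lists.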

Additional observations from a re-analysis of the deposited data

How the results depend on the processing

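No paired analysis was possible because each treatment and antibody had 1 library. Of 74 alternative values, 33 stayed within the counting interval of the value given (or within 1.5 times a count), and the cause of the others was not tested beyond the setting itself. The number of domains was 3682 with a minimum width of 1500 bp, 416 with 3000 bp and 7288 when LPS peaks within 1000 bp were merged first. The median PBS-covered share was 72.84% at 1500 bp, 76.89% at 3000 bp, 71.28% with -log10 q of 5 or more everywhere and 77.62% when at least 50% of the domain had to be covered. The share with LPS H3K27ac was 6.71% at 1500 bp, 14.2% at 3000 bp, 2.73% with that q limit and 5.13% within 500 bp of the summit. The promoter share was 19.1% at 1500 bp, 25% at 3000 bp, 31.4% with promoters of 2500 bp, 15.2% with protein-coding start sites only and 14.5% within 500 bp of the summit. The share with PU.1, C/EBP or AP-1 letters was 39.5% within 200 bp of the summit (36.9% of all LPS peaks) and 24.4% within 150 bp of the middle of the domain (28.9%), the latter below the share of all peaks.

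Among gene lists, a minimum of 1500 bp gave 51.5% of receptors and effectors and 51.9% of LPS signalling genes, both above lineage factors at 45.0%. Primary response genes stood at 38% and late response genes at 17.6%. Housekeeping genes stood at 25%, other blood genes at 22.6% and non-blood genes at 6.45%, against 16.3% of all genes. With 3000 bp the shares were 20.0% of lineage factors, 6.06% of receptors and effectors, 0 of primary response, 7.41% of LPS signalling, 3.57% of housekeeping, 3.23% of other blood and 0 of non-blood genes, against 2.61%. Within 10 kb they were 25%, 15.2%, 0, 3.70%, 0, 0 and 0 in the same order, against 2.49%. Within 100 kb the late response stood at 11.8%, housekeeping genes at 32.1% and other blood genes at 32.3%, against 15.6%, and the latter 2 then lay above receptors and effectors (30.3%). With the gene body extended by 10 kb the shares were 40% for lineage factors, 24.2% for receptors and effectors and 22.2% for LPS signalling. They were 3.57% for housekeeping and 0 for primary response, late response, other blood and non-blood genes, against 5.79% of all genes. At an estimated 7000000 fragments a weak stretch can split a peak, and at a median of 9 fragments per LPS H3K27ac summit weaker acetylation was not detectable.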

Other observations

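At the 180 LPS H3K27ac summits inside domains, PU.1 letters were found within the 300 bp window of 12 (6.67%, 3.85 to 11.3%), against 154 of 3938 H3K27ac peaks outside domains (3.91%, 3.35 to 4.56%). NF-kB letters were found at 2 (1.11%, 0.305 to 3.96%) and 36 (0.914%, 0.661 to 1.26%), and IRF letters at 18 (10.0%, 6.42 to 15.3%) and 436 (11.1%, 10.1 to 12.1%). The H3K4me1 summit itself lay toward the middle of a domain, with 466 (27.2%, 25.1 to 29.3%) at 40 to 50% of the length from the nearer edge and 135 (7.88%, 6.69 to 9.25%) within 10% of an edge. H3K27ac summits had 51 of 180 (28.3%, 22.3 to 35.3%) and 18 (10.0%, 6.42 to 15.3%) in the same classes. Of the 100 widest LPS H3K27ac peaks, 6 lay in a domain (6.00%, 2.78 to 12.5%), and of the 100 with the highest -log10 q, 2 (2.00%, 0.550 to 7%), against 4.42% of all LPS H3K27ac peaks on these chromosomes.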
